A study of Mus musculus with 16 samples.

Results

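The genes of the smooth muscle contractile apparatus were followed in mouse embryonic stem cells that carry no, 1 or both working copies of Nat1. The set consists of 9 of the 21977 gene names in the deposited table, picked by name: Acta2, Actg2, Myl9, Tpm1, Tpm2, Tagln, Cnn1, Cnn2 and Cald1. Ribosome-protected fragments (RPFs, the stretches of mRNA shielded by a ribosome) and total RNA were sequenced from the same 8 cultures, which gives 16 libraries. The cultures were 3 Nat1-null lines (Nat1-/-, lines B12, B2 and C3), 3 heterozygous lines (Nat1+/-, lines A7, B4 and C1) and 2 replicates of the wild-type line RF8 (WT, WTex1 and WTex2), all kept with LIF on gelatin-coated plates. Nat1 is now named Eif4g2 (DAP5, p97) and encodes a relative of the translation initiation scaffold eIF4G that cannot bind the cap-binding protein eIF4E. Each mutant culture is a line of its own and both WT cultures come from 1 line, so the spread in WT holds no difference between lines. The labels do not say how the alleles were disrupted. Throughout, values are normalised reads, that is reads divided by 1 factor per library, and cultures are listed in the order above.

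In smooth muscle, filaments of Acta2 and Actg2 slide along myosin, whose regulatory light chain Myl9 switches contraction on when it is phosphorylated. Tropomyosins (Tpm1, Tpm2) lie along the actin filament, and caldesmon (Cald1), calponins (Cnn1, Cnn2) and transgelin (Tagln, also SM22) bind to it and stabilise it or hold back the myosin motor. Many of these genes are switched on by the transcription factor SRF with its partners of the MRTF family or myocardin, through a DNA element called the CArG box. Undifferentiated stem cells do not contract, and the same genes are used in other cells for stress fibres and for cell shape.

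The promoters are shown first because most of the set moved in one direction across genotypes and the CArG box is the element these genes are known for. RefSeq windows of assembly GRCm38.p6, running from 250 bases before to 50 bases after the annotated start, were at hand for 7 of the 9 genes as 8 windows, with 2 for Cald1. They were searched on both strands for the CArG box, a motif of 10 bases, and for CArG-like elements in which 1 letter of the core was not A or T. A CArG box lay in 2 windows, those of Myl9 and Cnn2, and a CArG-like element in those of Acta2 and Myl9, so that 3 of the 8 windows held either. Among all 32851 promoter windows of the reference, 1.63% held a CArG box, 8.499% a CArG-like element and 9.98% either. The 3 windows follow, each 5′ to 3′ on the strand of the gene, with CArG boxes and CArG-like elements in capitals.
Acta2 (chr19:34255324-34255623, minus strand): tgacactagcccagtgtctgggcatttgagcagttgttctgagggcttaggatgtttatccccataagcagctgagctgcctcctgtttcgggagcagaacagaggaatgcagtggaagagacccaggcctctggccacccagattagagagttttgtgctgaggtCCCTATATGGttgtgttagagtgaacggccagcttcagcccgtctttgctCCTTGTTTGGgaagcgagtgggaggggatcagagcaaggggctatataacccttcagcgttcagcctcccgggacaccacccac
Myl9 (chr2:156775214-156775513, plus strand): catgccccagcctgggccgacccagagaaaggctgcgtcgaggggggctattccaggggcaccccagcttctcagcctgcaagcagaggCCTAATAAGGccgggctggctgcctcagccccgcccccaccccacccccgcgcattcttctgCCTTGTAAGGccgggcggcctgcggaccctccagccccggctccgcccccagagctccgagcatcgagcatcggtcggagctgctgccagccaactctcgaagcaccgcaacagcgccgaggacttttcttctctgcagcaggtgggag
Cnn2 (chr10:79988350-79988649, plus strand): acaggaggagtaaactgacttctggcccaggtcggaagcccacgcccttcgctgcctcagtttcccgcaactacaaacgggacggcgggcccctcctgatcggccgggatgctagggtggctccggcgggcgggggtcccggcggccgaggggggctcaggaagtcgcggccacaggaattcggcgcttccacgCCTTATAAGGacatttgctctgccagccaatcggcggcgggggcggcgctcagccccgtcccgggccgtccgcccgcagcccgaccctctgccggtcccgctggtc
Positions count from the annotated start, with bases before it negative. In Acta2 both elements are CArG-like and begin at -84 and -34. In Myl9 the CArG box begins at -161 and the CArG-like element at -99, and in Cnn2 the CArG box begins at -56. The windows of Tpm1, Tpm2, Cnn1 and Cald1 held neither, which says only that these letters do not occur in the stretches searched. A match is a run of letters and does not show that a factor binds there.

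RPF libraries held 17480387 to 23777667 reads and total RNA libraries 13206434 to 42562496, the deepest total RNA libraries being those of B12, WTex1 and WTex2. Footprints of Eif4g2 were 1089, 1114 and 922 in Nat1-/-, 10261, 7608 and 7275 in Nat1+/-, and 17666 and 13862 in WT, in the order that the labels give. Its total RNA overlapped between the mutant genotypes, at 12249, 8795 and 5085 in Nat1-/- and 15335, 12092 and 10674 in Nat1+/-. In WT it was 47932 and 26984.5. The cultures carried stem cell markers and little of the smooth muscle myosin heavy chain: Myh11, which defines differentiated smooth muscle, had 2.66 to 12.5 RPF reads in Nat1-/-, 10.8 to 27.3 in Nat1+/- and 10.9 to 39.7 in WT. Other smooth muscle markers varied in level. Smtn had 629 to 1400 RPF reads and Des 161 to 603 over the cultures, while Lmod1, Kcnmb1, Pln and Myocd had at most 59.7. The name of the set describes the genes, and whether the cultures held smooth muscle cells was not tested. In cultures sequenced in bulk, fewer cells of a type and less RNA per cell cannot be told apart.

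The contractile set was lowest in Nat1-/-, higher in Nat1+/- and highest in WT. Between Nat1-/- and Nat1+/- footprints of 8 of the 9 genes fell and 0 rose, where 36.1% of all 13110 genes tested changed and 18.6% fell (limma on log2(value + 1), Benjamini-Hochberg adjusted p under 0.05). The exception was Actg2. Between Nat1-/- and WT all 9 fell, where 34.8% of genes tested changed and 18.3% fell, and between Nat1+/- and WT 8 fell, where 10.5% changed and 5.13% fell. The median log2 fold change of the 9 footprint values was -1.85 between Nat1-/- and Nat1+/- and -3.58 between Nat1-/- and WT, while that of all genes tested was 0.02 and 0.03.

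Total RNA moved in the same directions. Of the 8 genes with enough reads to test, 6 fell between Nat1-/- and Nat1+/-, where 39.96% of 13813 genes changed and 20.2% fell, and all 8 fell between Nat1-/- and WT, where 35.03% changed and 18.9% fell. Between Nat1+/- and WT 6 fell, where 10.01% changed and 5.41% fell. A gene was tested when its mean over the 8 libraries of an assay was at least 10, and Actg2 missed that in total RNA. Acta2 passed in both assays and Myl9 in total RNA only through the genotypes where they are high, with means under 10 in Nat1-/-, so their selection already favoured a difference. Of the genes with a mean of at least 10 in every genotype, 7 of 8 fell in RPF and 5 of 6 in total RNA between Nat1-/- and Nat1+/-.

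Footprints of Nat1-/- and Nat1+/- cultures did not overlap for 8 genes of the set, with Nat1-/- lower, against 23.5% of all genes tested, and those of Nat1-/- and WT for all 9, against 28.9%. Those of Nat1+/- and WT did not overlap for all 9 either, against 28.1%. In total RNA the counts were 7, 8 and 8 of 9, against 24.6%, 30.04% and 28.6% of genes tested.

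**Figure D1:**
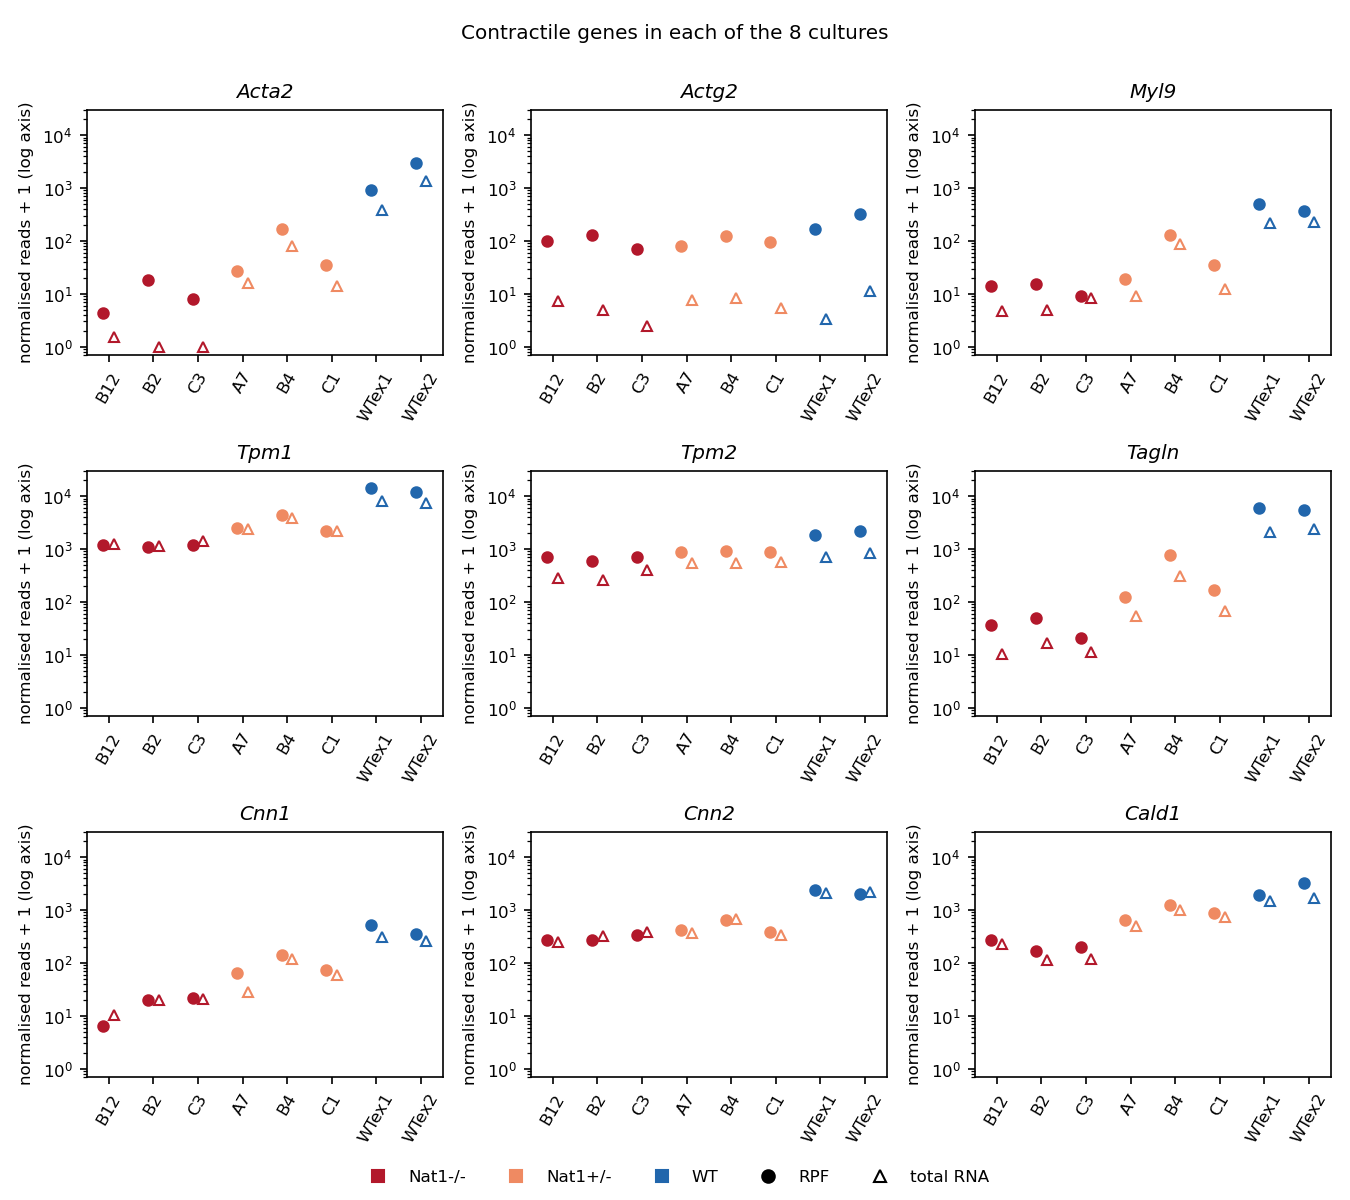
Normalised reads plus 1 on a log axis for each of the 9 genes in each culture, with filled circles for RPF and open triangles for total RNA, Nat1-/- in red, Nat1+/- in orange and WT in blue. WT cultures stand highest in every RPF panel, B4 stands highest among Nat1+/- cultures in RPF (in total RNA for all but Tpm2), and Actg2 has RPF values of 68.4 to 323 beside total RNA values of 1.49 to 10.3.

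The actins of smooth muscle behaved unlike each other. Acta2, smooth muscle alpha-actin, had 3.24, 16.9 and 6.84 RPF reads in Nat1-/-, against 26.0, 164 and 33.6 in Nat1+/- and 928 and 2976 in WT. The 3 genotypes formed 3 separate ranges, with B4 well above A7 and C1 and WTex2 above WTex1. Acta2 fell by 2.67 ± 0.75 on the log2 scale between Nat1-/- and Nat1+/- (SE, n = 3 and 3; limma adjusted p = 0.0203), and the log2 fold change was -7.63 ± 0.84 between Nat1-/- and WT (adjusted p = 2.0e-04) and -4.95 ± 0.84 between Nat1+/- and WT (adjusted p = 0.0157). The call against Nat1+/- was lost without B12 (adjusted p = 0.0513) and without B4 (-1.86, adjusted p = 0.0643).

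Acta2 RNA was barely detected in Nat1-/- cultures. Total RNA held 0.518, 0 and 0 normalised reads in Nat1-/-, which is 1 read in B12 and 0 in B2 and C3, against 14.7, 79.2 and 12.8 in Nat1+/- and 382 and 1356 in WT. No Nat1-/- culture reached the lowest Nat1+/- culture. Scaled for depth, that 1 read amounted to 0.820% of the Nat1+/- level (95% interval 0.0205% to 4.72%, counting error only) and 0.0371% of the WT level (0.00094% to 0.207%). Counts of 0 in B2 and C3 allow up to 3.996 and 4.47 normalised reads. The limma log2 fold change was -4.50 ± 0.70 against Nat1+/- (adjusted p = 0.0010) and -9.29 ± 0.79 against WT (adjusted p = 4.1e-05), values that depend on the added 1 where a culture is at 0.

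Actg2, the gamma-actin of gut and other visceral smooth muscle, was the gene of the set that did not follow the order. Its RPF values were 99.3, 130 and 68.4 in Nat1-/-, 80.2, 122 and 94.5 in Nat1+/-, and 169 and 323 in WT. Nat1-/- and Nat1+/- cultures overlapped throughout, and both WT cultures lay above all 6 mutant cultures. The log2 fold change was -0.02 ± 0.32 between Nat1-/- and Nat1+/- (limma adjusted p = 0.964), -1.28 ± 0.35 between Nat1-/- and WT (adjusted p = 0.0199) and -1.26 ± 0.35 between Nat1+/- and WT (adjusted p = 0.0505). Without WTex2 the adjusted p between Nat1-/- and WT was 0.199.

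Its total RNA was low everywhere, with 6.21, 3.996 and 1.49 in Nat1-/-, 6.53, 7.20 and 4.28 in Nat1+/- and 2.30 and 10.3 in WT. In the 5 cultures with more than 3 total RNA reads, footprints exceeded total RNA 12.3-fold to 73.6-fold, whereas Acta2 had ratios of 1.77 to 2.61 in Nat1+/- and 2.43 and 2.19 in WT. Actin coding sequences are near-identical between genes, and the treatment of reads that fit several genes is not stated, so the footprints of Actg2, and the low ones of Acta2 in Nat1-/-, are uncertain. The cytoplasmic actin Actg1 had 13016, 17111 and 9844 RPF reads in Nat1-/-, 7738, 17851 and 10463 in Nat1+/- and 29074 and 32736 in WT. Its part in the Actg2 values was not tested.

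Myl9, the regulatory light chain of smooth muscle and non-muscle myosin, had 13.0, 14.2 and 7.97 RPF reads in Nat1-/-, 18.4, 131 and 33.6 in Nat1+/-, and 502 and 364 in WT. The Nat1-/- cultures lay below A7 by a small margin and far below B4. Footprints fell by 1.85 ± 0.60 on the log2 scale between Nat1-/- and Nat1+/- (limma adjusted p = 0.0357), and the log2 fold change against WT was -5.11 ± 0.67 (adjusted p = 5.0e-04). Total RNA was 3.62, 3.996 and 7.45 in Nat1-/-, 8.16, 86.4 and 11.4 in Nat1+/-, and 221 and 231 in WT. Its log2 fold change against Nat1+/- was -1.89 ± 0.73 and did not pass (adjusted p = 0.0612), while that against WT was -5.29 ± 0.81 (adjusted p = 9.1e-04). The RPF call against Nat1+/- was the least steady of the set: it was kept under 9 of 18 alternatives, and leaving out any culture but A7 ended it (adjusted p 0.0503 to 0.0749).

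The tropomyosins both fell, Tpm1 more than Tpm2. Tpm1 had 1191, 1088 and 1181 RPF reads in Nat1-/-, 2459, 4506 and 2237 in Nat1+/-, and 14199.9 and 11984 in WT. The 3 Nat1-/- cultures were close to each other and below every other culture. The log2 fold change was -1.34 ± 0.23 against Nat1+/- (limma adjusted p = 0.0025) and -3.50 ± 0.26 against WT (adjusted p = 3.3e-05), and -2.16 ± 0.26 between Nat1+/- and WT (adjusted p = 0.0069). Total RNA was 1245, 1163 and 1430 in Nat1-/-, 2346, 3815 and 2168 in Nat1+/-, and 8164 and 7547 in WT, which was -1.08 ± 0.20 against Nat1+/- (adjusted p = 0.0024) and -2.62 ± 0.22 against WT (adjusted p = 4.1e-05). Tpm1 kept its call between Nat1-/- and each other genotype under every alternative tried in RPF and in total RNA.

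Tpm2 differed least between the mutant genotypes among the genes that passed. Its RPF values were 696, 586 and 699 in Nat1-/-, 875, 905 and 872 in Nat1+/-, and 1866 and 2155 in WT. The Nat1+/- lines were almost level, and the Nat1-/- mean was 74.7% of theirs. The log2 fold change was -0.42 ± 0.13 against Nat1+/- (limma adjusted p = 0.0308) and -1.61 ± 0.15 against WT (adjusted p = 8.1e-05). Without B2, A7, B4 or C1 the first of these did not pass (adjusted p 0.0705 to 0.135). In total RNA Tpm2 had 279, 261 and 395 in Nat1-/-, 550.3, 556 and 562 in Nat1+/-, and 698 and 858 in WT. The RNA difference against Nat1+/- was -0.86 ± 0.18 (adjusted p = 0.0050), against -1.33 ± 0.20 between Nat1-/- and WT (adjusted p = 8.9e-04), while Nat1+/- and WT were not called apart (-0.48 ± 0.20, adjusted p = 0.148).

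Tagln and Cnn1, actin-binding proteins used as smooth muscle markers, fell strongly. Tagln had 35.6, 49.7 and 19.4 RPF reads in Nat1-/-, 121, 763 and 168 in Nat1+/-, and 5906 and 5593 in WT. On average Nat1-/- cultures had 9.95% of the Nat1+/- signal and 0.607% of that in WT, and no culture of one genotype entered the range of another. Its log2 fold change was -2.90 ± 0.59 against Nat1+/- (limma adjusted p = 0.0050), -7.42 ± 0.66 against WT (adjusted p = 7.5e-05) and -4.52 ± 0.66 between Nat1+/- and WT (adjusted p = 0.0105). Total RNA of Tagln was 9.32, 15.99 and 10.4 in Nat1-/-, 52.2, 312 and 67.1 in Nat1+/-, and 2105 and 2449 in WT. That was -3.05 ± 0.56 against Nat1+/- (adjusted p = 0.0023) and -7.49 ± 0.62 against WT (adjusted p = 3.6e-05).

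Cnn1, the calponin of differentiated smooth muscle, had 5.40, 18.7 and 20.5 RPF reads in Nat1-/-, 62.9, 139 and 72.4 in Nat1+/-, and 511 and 352 in WT. B12 was lowest and the genotypes did not overlap. The log2 fold change was -2.64 ± 0.48 against Nat1+/- (limma adjusted p = 0.0031) and -4.93 ± 0.54 against WT (adjusted p = 2.0e-04). In total RNA Cnn1 had 9.32, 18.7 and 19.4 in Nat1-/-, 27.8, 117 and 57.1 in Nat1+/-, and 302 and 261 in WT, or -1.86 ± 0.48 against Nat1+/- (adjusted p = 0.0127) and -4.13 ± 0.54 against WT (adjusted p = 3.6e-04).

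Cnn2, the calponin found widely outside smooth muscle, changed less between the mutant genotypes and more against WT. Its RPF values were 274, 273 and 342 in Nat1-/-, 412, 639 and 384 in Nat1+/-, and 2351 and 2020 in WT. All 6 mutant cultures lay far below both WT cultures, and C3 came close to C1. The log2 fold change was -0.66 ± 0.21 against Nat1+/- (limma adjusted p = 0.0317), -2.88 ± 0.23 against WT (adjusted p = 4.9e-05) and -2.22 ± 0.23 between Nat1+/- and WT (adjusted p = 0.0045). The call against Nat1+/- was lost without B12, B2, B4, WTex1 or WTex2 (adjusted p 0.0509 to 0.108). Total RNA of Cnn2 was 245, 324 and 380 in Nat1-/-, 369, 677 and 338 in Nat1+/-, and 2119 and 2212 in WT. There the mutant genotypes overlapped (-0.49 ± 0.26, adjusted p = 0.155), while the difference between Nat1-/- and WT was -2.79 ± 0.29 (adjusted p = 1.2e-04).

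Cald1, caldesmon, had 271, 166 and 199 RPF reads in Nat1-/-, 634, 1269 and 872 in Nat1+/-, and 1930 and 3213 in WT. Every Nat1-/- culture was below every Nat1+/- culture, and these were below both WT cultures. The log2 fold change was -2.09 ± 0.29 against Nat1+/- (limma adjusted p = 7.4e-04), -3.58 ± 0.32 against WT (adjusted p = 7.8e-05) and -1.49 ± 0.32 between Nat1+/- and WT (adjusted p = 0.0266). Total RNA was 225, 113 and 116 in Nat1-/-, 488, 1009 and 752 in Nat1+/-, and 1487 and 1671 in WT. That was -2.31 ± 0.31 against Nat1+/- (adjusted p = 4.6e-04) and -3.45 ± 0.34 against WT (adjusted p = 9.7e-05), and -1.13 ± 0.34 between Nat1+/- and WT, which did not pass (adjusted p = 0.0624).

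**Figure D2:**
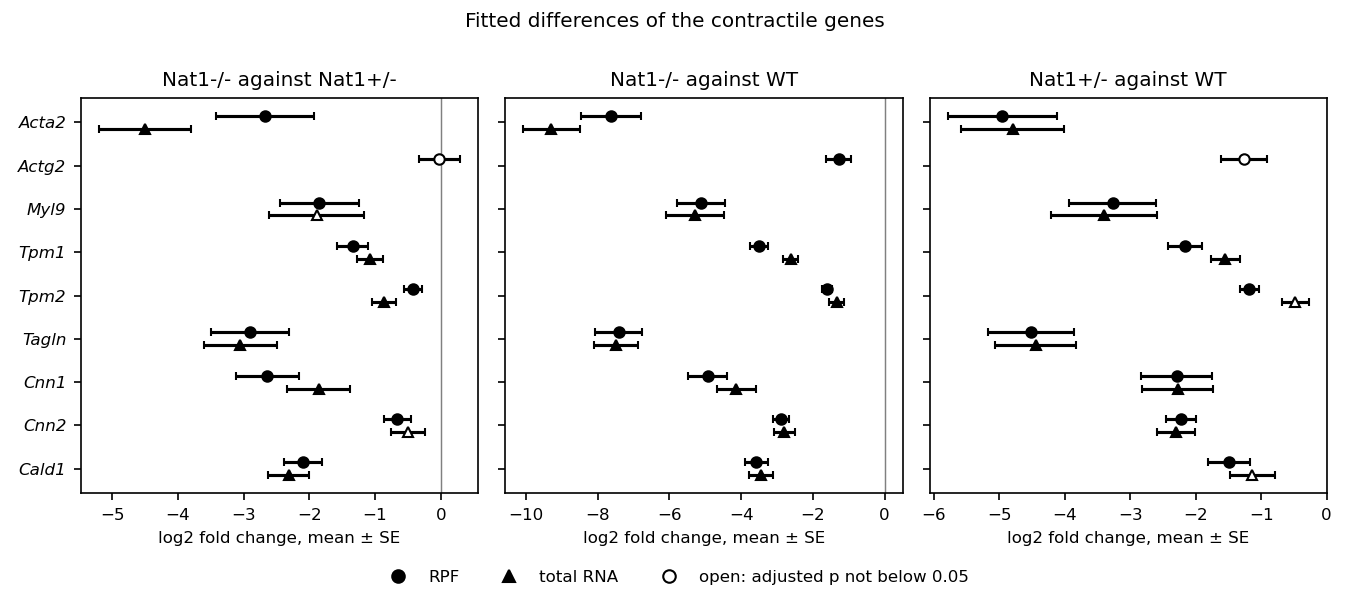
Fitted log2 fold changes with SE of each gene in RPF (circles) and total RNA (triangles), for Nat1-/- against Nat1+/-, Nat1-/- against WT and Nat1+/- against WT, filled where the adjusted p was under 0.05. Points lie left of 0 in all 3 panels, with Actg2 at -0.02 in the first, and the axes differ in range between panels.

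Within genotypes the cultures differed in a way that touched most of the set, though hardly Tpm2. B4 was the highest Nat1+/- culture for 9 of 9 genes in RPF and 8 of 9 in total RNA. The share of all genes highest in B4 was not counted. Its RPF value over the mean of A7 and C1 was 5.503-fold for Acta2, 5.28-fold for Tagln, 5.02-fold for Myl9 and 1.04-fold for Tpm2. Over all genes, the 4737 RPF calls between Nat1-/- and Nat1+/- became 2803 to 5445 with 1 culture left out. Without B4, 4 genes of the set passed in that comparison, namely Tpm1, Tagln, Cnn1 and Cald1. The same 4 passed when the fit was limited to the 5 cultures whose total RNA libraries were shallow, and they kept the call under all 18 alternatives. Calls between Nat1+/- and WT rested on both WT cultures: without WTex1 0 of the 9 genes passed in RPF, and without WTex2 only Cnn2 did, with 0 of 8 in total RNA either way. Over all genes the calls were then 0 and 23 in RPF and 0 and 16 in total RNA, so the loss was that of the whole table. Between Nat1-/- and WT, 8 or 9 genes passed in RPF and 8 of 8 in total RNA whichever culture was left out. Without WTex1 or WTex2 the WT arm is 1 culture, which the fit assumes to vary like the cultures of the other genotypes.

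The ratio of footprints to total RNA, called translational efficiency (TE), asks whether ribosome loading changed beyond the amount of RNA. In the fit over all 16 libraries 0 of the 8 genes of the set that could be tested were called in any comparison, where 0.580% of 12933 genes were called between Nat1-/- and Nat1+/-, 0.00773% between Nat1-/- and WT and 0.00% between Nat1+/- and WT (limma interaction of assay and genotype). Fits by edgeR and DESeq2 on the reads recovered from the values also called 0 genes of the set in each comparison. The RPF and total RNA library of a culture are paired, and with the culture as a block 2 genes passed between Nat1-/- and Nat1+/- (15.8% of genes), 1 between Nat1-/- and WT (1.22%) and 2 between Nat1+/- and WT (1.13%). The first count includes Acta2, which had 1 total RNA read in all of Nat1-/-, and its value carries no weight.

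Tpm1 was the gene with the steadiest TE difference. Its ratio was 0.957, 0.935 and 0.826 in Nat1-/-, 1.05, 1.18 and 1.03 in Nat1+/-, and 1.74 and 1.59 in WT. The 3 ranges did not overlap. With the culture as a block the log2 difference was -0.88 ± 0.11 between Nat1-/- and WT (limma adjusted p = 0.0063) and -0.62 ± 0.11 between Nat1+/- and WT (adjusted p = 0.0443), while -0.26 ± 0.10 between Nat1-/- and Nat1+/- did not pass (adjusted p = 0.0870). The difference between Nat1-/- and WT passed with each of the 8 cultures left out in turn (adjusted p 0.0026 to 0.0448). That between Nat1+/- and WT was lost without B2, A7, B4, C1, WTex1 or WTex2 (adjusted p 0.0620 to 0.335). Both WT total RNA libraries were deeper than all but B12, and the part of depth in the ratio was not tested.

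Tpm2 did not follow the order of Tpm1. Its ratio was 2.49, 2.24 and 1.77 in Nat1-/-, 1.59, 1.63 and 1.55 in Nat1+/-, and 2.67 and 2.51 in WT, so that the Nat1+/- lines were lowest and B12 came close to WT. With the culture as a block the log2 difference was 0.43 ± 0.13 between Nat1-/- and Nat1+/- (limma adjusted p = 0.0433) and -0.70 ± 0.14 between Nat1+/- and WT (adjusted p = 0.0486), and -0.27 ± 0.14 between Nat1-/- and WT did not pass (adjusted p = 0.492). The first call was kept when C3 was left out and lost with any other culture left out (adjusted p 0.0527 to 0.130). The second was kept without B12 or C3 and lost without any of the others (adjusted p 0.0722 to 0.341).

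Of the other genes only Acta2 had a TE difference that passed with the block. Cnn2 had ratios of 1.12, 0.842 and 0.899 in Nat1-/-, 1.12, 0.944 and 1.14 in Nat1+/-, and 1.11 and 0.913 in WT, and the genotypes overlapped. Cald1 had 1.21, 1.47 and 1.71 in Nat1-/-, 1.30, 1.26 and 1.16 in Nat1+/-, and 1.30 and 1.92 in WT. Tagln had 3.82, 3.11 and 1.86 in Nat1-/-, 2.32, 2.44 and 2.504 in Nat1+/- and 2.81 and 2.28 in WT, with Nat1-/- cultures on both sides of the rest. Cnn1 was lower in Nat1-/-, at 0.580, 1.00 and 1.06 against 2.27, 1.19 and 1.27 in Nat1+/- and 1.69 and 1.35 in WT, without overlap, yet did not pass (-0.78 ± 0.31 against Nat1+/- with the block, adjusted p = 0.105). In Nat1-/- the Cnn1 ratios rest on few reads, 5, 21 and 18 in RPF and 18, 14 and 13 in total RNA. Those of Tagln rest on 18, 12 and 7 total RNA reads. Acta2 was called higher in Nat1-/- than in Nat1+/- with the block (1.82 ± 0.54, adjusted p = 0.0421), on the 1, 0 and 0 total RNA reads given above, and the call was kept without B12 (adjusted p = 0.0012) and lost without any other culture (adjusted p 0.0566 to 0.135). Its value ran over 0.39 to 3.64 across the alternatives.

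**Figure D3:**
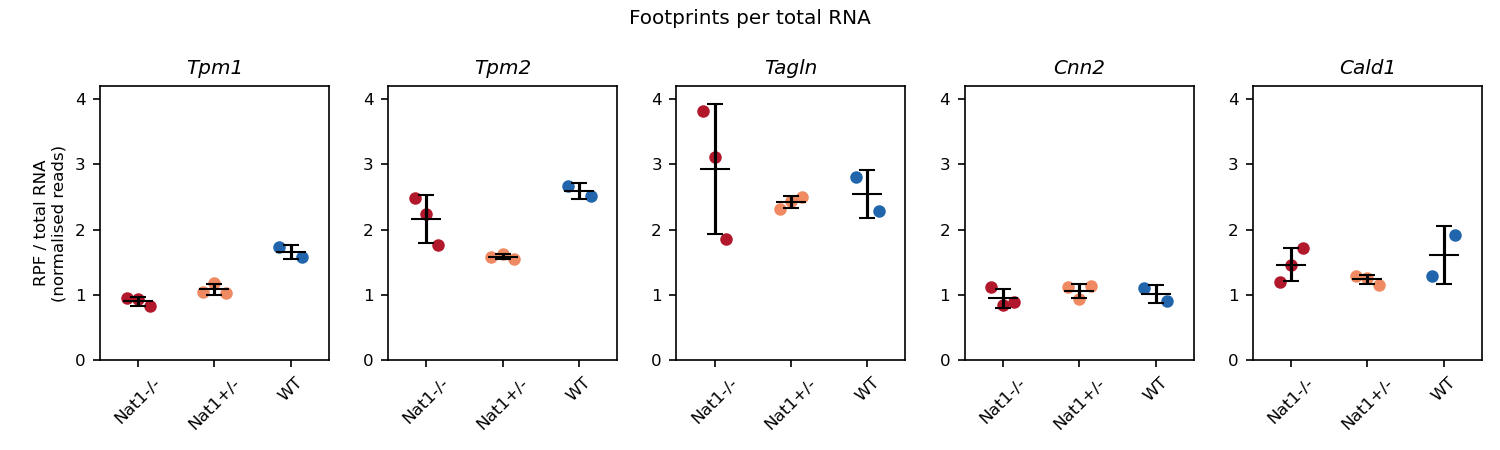
Ratio of RPF to total RNA in normalised reads for 5 genes, each dot a culture and the bars the mean with SD (n = 3 Nat1-/-, 3 Nat1+/-, 2 WT). For Tpm1 the genotypes stand apart, at 0.826 to 0.957 in Nat1-/- and 1.59 and 1.74 in WT, for Tpm2 the Nat1+/- lines are lowest, and for Tagln, Cnn2 and Cald1 the genotypes overlap.

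Relatives of these proteins outside the set moved in both directions in footprints. Of 13 actin, tropomyosin, calponin, transgelin and myosin light chain genes, 3 rose and 3 fell in footprints between Nat1-/- and Nat1+/- (limma, 7 not passing), and 1 rose and 6 fell between Nat1-/- and WT, where 36.1% and 34.8% of all genes changed. In total RNA 2 rose and 6 fell of 12 between Nat1-/- and Nat1+/-, and 0 rose and 7 fell between Nat1-/- and WT, where 39.96% and 35.03% of all genes changed. The median log2 fold change in footprints was -0.39 and -0.56, against -1.85 and -3.58 for the contractile set. The muscle actin Acta1, of skeletal muscle, had 15.1, 20.4 and 6.84 RPF reads in Nat1-/-, 30.4, 145 and 28.3 in Nat1+/-, and 427 and 528 in WT, an order and a B4 value like those of Acta2 (-1.88 ± 0.60 against Nat1+/-, adjusted p = 0.0345). The cardiac actin Actc1 read -1.23 ± 0.60 (adjusted p = 0.134) and the cytoplasmic actins Actb and Actg1 -0.47 ± 0.20 and 0.20 ± 0.29, none of them passing. The uncertainty about reads that fit several actin genes holds for the footprints of Acta1 and Actc1 too. Actc1 had 4.32 to 19.5 RPF reads in B12, B2, C3 and A7, where its total RNA was 0.

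Among tropomyosins, Tpm3 rose between Nat1-/- and Nat1+/- (0.57 ± 0.19, limma adjusted p = 0.0422), and Tpm4 read -0.39 ± 0.18 (adjusted p = 0.117). Between Nat1-/- and WT Tpm4 fell by 1.94 ± 0.20 on the log2 scale (adjusted p = 1.6e-04) and Tpm3 read -0.12 ± 0.22. Cnn3, the calponin of non-muscle cells, fell by 0.41 ± 0.12 against Nat1+/- (adjusted p = 0.0240). Tagln2 read -0.40 ± 0.16 (adjusted p = 0.0821), and Tagln3, a transgelin of neurons, fell by 1.94 ± 0.25 (adjusted p = 5.1e-04). Among myosin light chains the essential chains Myl6 and Myl6b rose by 0.95 ± 0.17 and 1.85 ± 0.21 (adjusted p = 0.0028 and 3.1e-04), while the regulatory chains Myl12a and Myl12b read 0.40 ± 0.24 and 0.13 ± 0.15. Myl6b had 478, 395 and 300 RPF reads in Nat1-/-, 104, 94.2 and 120 in Nat1+/- and 193 and 163 in WT, so it was lowest in Nat1+/-.

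**Figure D4:**
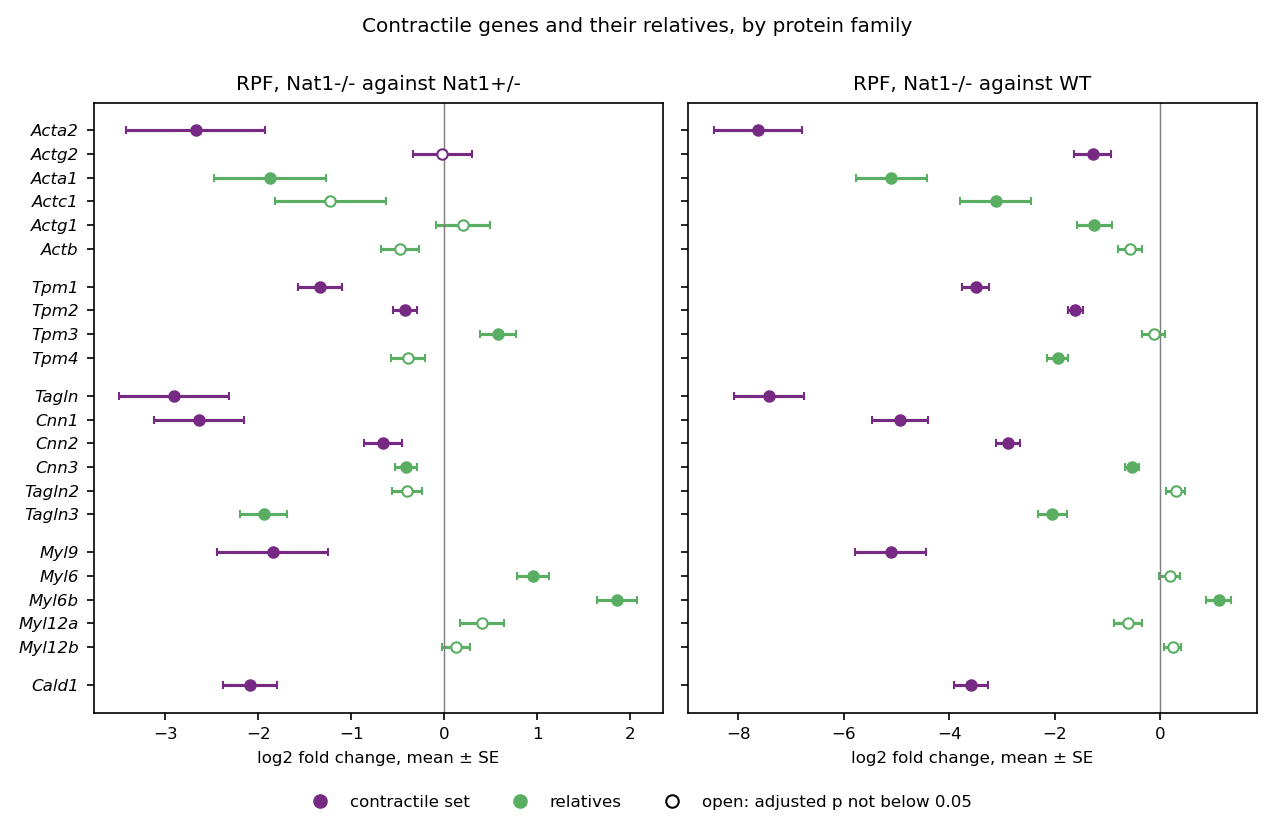
Log2 fold changes of footprints with SE for the contractile set (purple) and 13 relatives (green) by protein family, Nat1-/- against Nat1+/- on the left and Nat1-/- against WT on the right, filled where the adjusted p was under 0.05. In the left panel Myl6, Myl6b and Tpm3 lie right of 0 and Tagln, Acta2 and Cnn1 reach -2.90, -2.67 and -2.64.

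Of 16 genes of smooth muscle contraction and its regulators, 12 could be tested in RPF, and between Nat1-/- and Nat1+/- 2 fell and 0 rose, where 18.6% of all genes fell. These were Synpo2, an actin-binding protein of muscle, at -2.36 ± 0.42 (limma adjusted p = 0.0029), and Ppp1r14a, an inhibitor of myosin light chain phosphatase, at -0.74 ± 0.20 (adjusted p = 0.0169). Synpo2, at 4.32, 4.44 and 6.84 RPF reads in Nat1-/-, passed the filter only through the genotypes where it is high, so its selection already favoured a difference. The actin nucleator Lmod1 read -1.20 ± 0.43 (adjusted p = 0.0515). Against WT, 6 of the 12 fell and 0 rose in RPF in Nat1-/-, where 18.3% of all genes fell. In total RNA 7 of 13 fell and 3 rose between Nat1-/- and Nat1+/-, where 39.96% of all genes changed and 20.2% fell. The coactivator Myocd had at most 2.28 RPF reads in Nat1-/- and at most 9.11 in Nat1+/-, against 20.2 and 19.4 in WT, too few to be tested.

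Of 16 other targets of SRF and MRTF, 8 fell and 0 rose in footprints between Nat1-/- and Nat1+/-, where 18.6% of all genes fell, and 10 fell and 0 rose between Nat1-/- and WT, where 18.3% fell. Zyxin (Zyx), a focal adhesion protein, had 137, 100.4 and 113 RPF reads in Nat1-/-, 213, 274 and 284 in Nat1+/- and 899.6 and 884 in WT, 3 ranges apart as for Tpm1 (-1.13 ± 0.19 against Nat1+/-, limma adjusted p = 0.0018). The LIM protein Fhl1 had 301, 248.7 and 329 in Nat1-/- and 1208, 751 and 1135 in Nat1+/-, but 785 and 1015 in WT, so that Nat1+/- and WT overlapped. Ankrd1, a muscle ankyrin repeat protein, had 0, 0 and 1.14 in Nat1-/-, 5.42, 37.5 and 18.9 in Nat1+/- and 56.7 and 105 in WT. It passed the filter only through the genotypes where it is high, so its selection already favoured a difference.

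Of 13 tested genes of TGF-beta signalling, a pathway that induces many contractile genes, 2 rose and 5 fell in footprints between Nat1-/- and Nat1+/- (limma), where 36.1% of all genes changed and 18.6% fell. The inhibitor Smad7 rose, with 5477, 4377 and 3105 RPF reads in Nat1-/-, 743, 429 and 985 in Nat1+/-, and 944 and 975 in WT (2.63 ± 0.29, adjusted p = 2.7e-04). Skil, another inhibitor, and Smad3, a signal transducer, fell by 1.03 ± 0.15 and 1.40 ± 0.22 (adjusted p = 0.0011 and 0.0013).

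Markers of other cell types differed between the genotypes in part. Of 18 fibroblast markers 13 could be tested in RPF, and 6 fell and 0 rose between Nat1-/- and Nat1+/-, where 36.1% of all genes changed and 18.6% fell, led by Col1a2, Pdgfrb and Thy1. Col1a2, at 0, 3.55 and 1.14 RPF reads in Nat1-/-, passed the filter only through the genotypes where it is high, so its selection already favoured a difference. The summed RPF level of the 18 markers was 23606 to 79234 in Nat1-/-, 60347 to 100459 in Nat1+/- and 22922 to 43142 in WT, nearly all of it from Fn1 and Sparc. Without Fn1 and Sparc it was 612 to 1094 in Nat1-/-, 1218 to 2836 in Nat1+/- and 3890 to 9254 in WT. That order came largely from the collagen genes Col1a1 and Col1a2, which together make up most of the WT sum, while Thy1, Pdgfrb and Col5a1 did not follow it. Col3a1, Col6a1, Postn, Lox and Dcn, all low, were also higher in both WT cultures than in every mutant culture. Between Nat1-/- and WT 8 of the 13 tested markers fell and 0 rose in RPF (limma), where 34.8% of all genes changed and 18.3% fell. Col1a2, Col3a1, Col6a1 and Postn had 7.97 RPF reads or less in each Nat1-/- culture. They passed the filter only through the genotypes where they are high, so their selection already favoured a fall, and the count is no support. Thy1 had 125, 46.2 and 96.8 RPF reads in Nat1-/-, 259, 328 and 219 in Nat1+/- and 162 and 121 in WT. Lum and Dcn, which mark differentiated fibroblasts, were at 0 RPF reads in all 3 Nat1-/- cultures and at most 3.04 in Nat1+/-, with 3.11 and 0 (Lum) and 16.3 and 8.71 (Dcn) in WT.

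Of the 7 smooth muscle markers outside the set, 4 could be tested in RPF. Between Nat1-/- and Nat1+/- 0 passed by limma, where 36.1% of all genes changed and 18.6% fell. Of the 4, 3 (Lmod1, Des and Myh11) were lower at an unadjusted p under 0.05, a level at which the share of all genes is not given here. Against WT only Smtn of the 4 fell, both in Nat1-/- (18.3% of all genes fell) and in Nat1+/- (5.13%). The 7 markers summed to 1030 to 1232 in Nat1-/-, 1023 to 1514 in Nat1+/- and 1593 to 1766 in WT, most of it from Smtn. Kcnmb1 was at 0 to 2.03 RPF reads in every culture. Of 6 cardiac markers, 5 were tested between Nat1-/- and Nat1+/-, with Myh6 and Actn2 lower and Tnni3 higher, where 36.1% of all genes changed and 18.6% fell. Myh6 and Actn2 had 15.1 RPF reads or less in each Nat1-/- culture and were tested mainly through the genotypes where they are high. The cardiac sum was 223 to 340.1 in Nat1-/-, 214 to 638 in Nat1+/- and 543 to 603 in WT. Skeletal muscle was represented by Myh3, the embryonic myosin heavy chain, which had 18.4, 20.4 and 21.6 in Nat1-/-, 56.4, 428 and 115 in Nat1+/- and 197 and 185 in WT. The 5 skeletal markers summed to 21.6 to 24.0 in Nat1-/-, 66.1 to 454 in Nat1+/- and 212 to 222 in WT, and Myod1, Myog and Ckm were at 9.45 or less in every culture. Of 4 endothelial markers, Tek and Cldn5 fell of 3 tested, against the same 18.6% of all genes. The endothelial sums were 1697 to 3731 in Nat1-/-, 2648 to 5505 in Nat1+/- and 2372 to 3002 in WT. Stem cell markers went the other way: 5 of 8 rose and 0 fell, where 36.1% of all genes changed and 18.6% fell. Nanog read 0.90 ± 0.18, Dppa5a 0.84 ± 0.19 and Tdgf1 0.81 ± 0.19 (log2). The 8 markers summed to 180408 to 201388 in Nat1-/-, 109900 to 130788 in Nat1+/- and 89370 to 105890 in WT. The part of other cell types in the results on the contractile set was not tested.

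Of the 8 genes nearest to Acta2 in their footprint pattern, 4 encode collagen chains or a matrix glycoprotein and 4 do not. Nearness was the root mean square difference, over the 8 cultures, of the deviations of log2(value + 1) from a gene's own mean, taken over 10682 genes with a mean of at least 50. The nearest was Col1a1, a chain of type I collagen, at 0.54, with 22.7, 45.3 and 38.7 RPF reads in Nat1-/-, 77.0, 707 and 93.4 in Nat1+/- and 1911 and 5922 in WT. It shares with Acta2 the high B4 and the excess of WTex2 over WTex1, which was 3.10-fold for Col1a1 and 3.21-fold for Acta2. Then followed Col5a2 (0.75) and Col1a2 (0.79), other fibrillar collagen chains, the matrix glycoprotein Thbs1 (0.76), Prss23 (0.83), the growth factor Igf2 (0.92), Anxa1 (0.93) and Sema6a (1.01). Within the contractile set Tagln was nearest to Acta2, at 0.68, nearer than every other gene but Col1a1, and Actg2 and Tpm2 were farthest, at 2.57 and 2.53.

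Tpm1 had other neighbours. The nearest was the kinase Pim2 at 0.25, with 128, 141 and 195 RPF reads in Nat1-/-, 278, 674 and 368 in Nat1+/- and 2432 and 1444 in WT. It was followed by the intermediate filament genes Nes (0.30) and Nefl (0.35), the planar polarity gene Prickle1 (0.34), Zyx (0.36), the metalloprotease Mmp25 (0.36) and the transcription factors Pax6 (0.38) and Zic2 (0.39). In the contractile set Cnn2, at 0.34, and Cald1, at 0.48, were nearest to Tpm1. These distances rest on 8 cultures in 3 genotypes and describe likeness of pattern only.

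**Figure D5:**
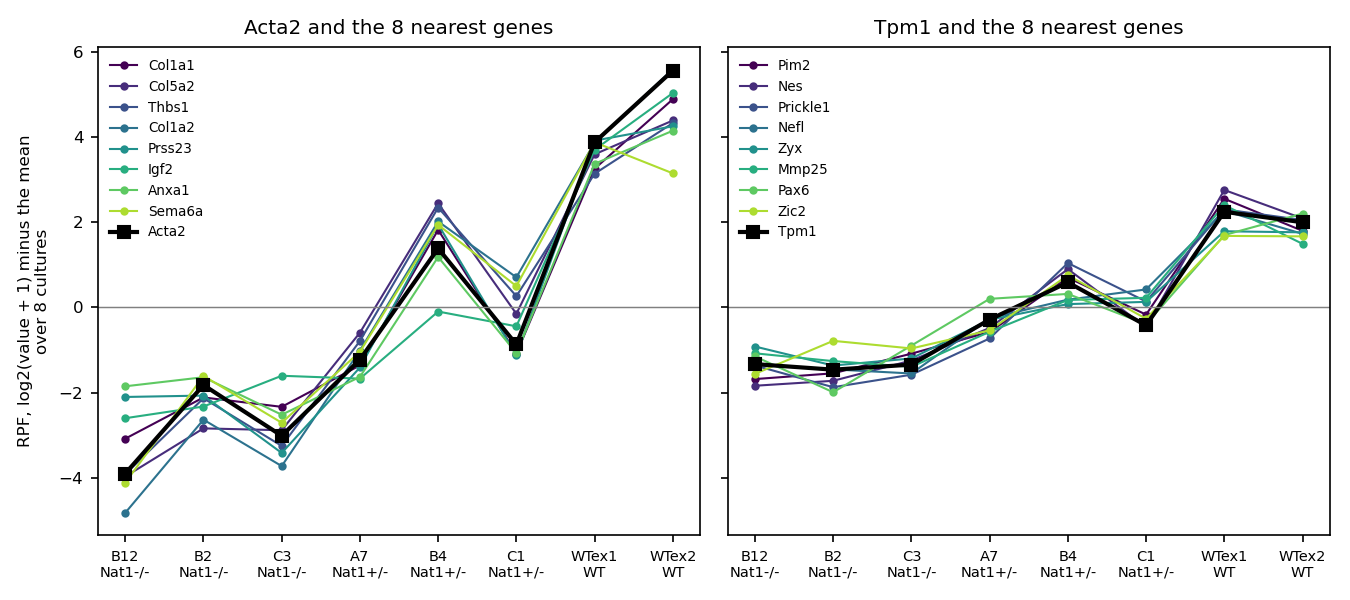
Deviation of RPF log2(value + 1) from the gene's mean over 8 cultures, for Acta2 with its 8 nearest genes (left) and Tpm1 with its 8 nearest genes (right), cultures ordered Nat1-/-, Nat1+/- and WT. On the left B4 rises above A7 and C1 for most lines, Igf2 least, and on the right the lines span a narrower range.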

How the data were processed

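Ribosome footprints and total RNA of 8 mouse embryonic stem cell cultures were used as deposited. The deposited values are a signal per gene, reads divided by 1 size factor per library. Per the submitters' processing notes, alignment used TopHat2 2.1.0 and Bowtie2 2.2.8, counting HTSeq 0.6.1, scaling DESeq2, and read preparation bcl2fastq 2.17 and cutadapt 1.9.1; mm10 and GRCm38.p4 are named as builds. Strand setting, footprint lengths and the handling of reads that fit several genes are not given in the sources used here. Dividing each library by the worth of 1 read gave whole reads for 100% of values (tolerance 0.001).

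Genes with a mean of at least 10 over the 8 libraries of an assay were fitted with limma 3.58.1 (R 4.3.3) on log2(value + 1), with 1 mean per genotype and a trended prior. TE was tested in 1 model of the 16 libraries as the assay-by-genotype term. Calls needed a Benjamini-Hochberg adjusted p under 0.05 over all genes. A fold change on this scale understates that of low genes. Alternatives included count models run on those whole reads (DESeq2 1.42.0, edgeR 4.0.16), other filters and pseudocounts, equal library sums, blocks and leaving out each culture. The fits were tested on simulated data.

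Genes and lists were chosen with earlier results of these data known. 1 list of pathway genes is not reported here. Named genes were the whole set, Eif4g2, all tested relatives, up to 3 genes per list with the smallest adjusted p in RPF between Nat1-/- and Nat1+/-, and the 8 genes nearest to Acta2 and to Tpm1. Other markers, among them Smtn, Des, Myocd, Kcnmb1, further fibroblast markers and those at or near 0, were named after their values were seen. Nothing says that the WT cultures were grown independently, so p-values measure the spread between these cultures. RPF and total RNA libraries of a culture were paired: deviations from genotype means correlated at 0.384 to 0.821, and 8 of 8 libraries correlated best with their partner. Deviations within a genotype sum to 0, so these matches are not independent. Those of WTex1 and WTex2 are mirror images with the same correlation (0.456) and count as 1.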

Additional observations from a re-analysis of the deposited data

How the results depend on the processing

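Each result was recomputed under the alternatives. In RPF, 405 of the values for single genes kept their direction and side of the threshold, 53 lost the call, 8 gained it and 2 changed sign; in total RNA 383 kept theirs, 23 lost it and 10 gained it, with no change of sign.

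The number of the 9 genes called in RPF between Nat1-/- and Nat1+/- was 8. It was 5 when only these genotypes were fitted and 4 in the 5 cultures with shallow total RNA libraries, and 4 to 7 with 1 culture left out. With 1 culture left out it was 8 to 9 between Nat1-/- and WT and 0 to 9 between Nat1+/- and WT. In total RNA the counts were 6 to 7, 8 to 8 and 0 to 7 for the same comparisons. Over all genes, leaving out 1 culture gave 2803 to 5445, 1932 to 5101 and 0 to 2635 calls in RPF, and 3579 to 6233, 2412 to 5179 and 0 to 2840 in total RNA. Between Nat1+/- and WT the 1374 RPF calls became 2519 with DESeq2 and 2638 with only these genotypes, and the 1383 total RNA calls became 2559 and 2768.

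For TE between Nat1-/- and Nat1+/-, the 75 calls over all genes became 128 with equal library sums, 394 with DESeq2, 21 with only these genotypes and 6 in the shallow cultures. Between Nat1-/- and WT the 1 call became 0 with edgeR, 37 with DESeq2 and 0 with only these genotypes. Between Nat1+/- and WT the 0 calls became 18 and 2 with DESeq2 and with only these genotypes. Leaving out 1 culture gave 6 to 376, 0 to 5 and 0 to 2 calls over all genes in the 3 comparisons, and 0 to 0 of the contractile set in each.

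With the culture as a replicate block the TE calls over all genes were 2037, 158 and 146, and those of the set 2, 1 and 2. Block fits with 1 culture left out, and the block in the shallow cultures, were chosen after seeing the data. With 1 culture left out the block gave 757 to 2951, 23 to 256 and 0 to 1049 calls over all genes and 0 to 1, 1 to 2 and 0 to 2 of the set. The block in the shallow cultures gave 1904 calls and 1 of the set.

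Replicate numbers did not pair Nat1-/- with Nat1+/- cultures (correlations of -0.126 to -0.0168 in RPF and -0.192 to -0.116 in total RNA for Nat1-/- and Nat1+/-) nor Nat1+/- with WT cultures (-0.0183 and 0.0140 in RPF, -0.109 and -0.0518 in total RNA). Nat1-/- and WT share only 2 numbers, and these correlated at 0.249 and 0.138 in RPF and 0.329 and 0.172 in total RNA, each best with its own number, which is a hint from the data and not from the design. A replicate block on these numbers gave 480 RPF calls between Nat1+/- and WT, and 7782 total RNA calls between Nat1-/- and WT against 4839. Tpm2 and Cnn2 were not called in RPF between Nat1-/- and Nat1+/- with that block (adjusted p = 0.112 and 0.0862, limma).

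Changes of sign concerned uncalled values. In TE between Nat1-/- and Nat1+/-, Myl9 was -0.14 with pseudocount 5, -0.0135 with equal library sums and -0.21 in the shallow cultures, with or without the block, and Tagln -0.0450 with pseudocount 5 and -0.0608 in the shallow cultures. Between Nat1-/- and WT, Myl9 was -0.17 and Tagln -0.16 with pseudocount 5. Between Nat1+/- and WT, Myl9 was -0.0269 with pseudocount 5, -0.18 with edgeR and -0.17 with DESeq2, and Cnn1 0.0523 with equal library sums. With 1 culture left out, Actg2 ranged over -0.24 to 0.22 in RPF between Nat1-/- and Nat1+/-. In TE, with and without the block, the ranges were -0.21 to 0.55 (Myl9) and -0.0608 to 0.44 (Tagln) between Nat1-/- and Nat1+/-; -0.0846 to 0.68 (Myl9), -0.13 to 0.36 (Tagln), -0.23 to 0.0514 (Cnn2) and -0.41 to 0.15 (Cald1) between Nat1-/- and WT; and -0.13 to 0.40 (Myl9), -0.22 to 0.0750 (Tagln), -0.30 to 0.15 (Cnn1) and -0.0635 to 0.22 (Cnn2) between Nat1+/- and WT. The cause of these changes was not tested. Depth limits Acta2 and Actg2 in total RNA, where a count of 0 allows up to 4.90 normalised reads.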
